A study of Homo sapiens with 24 samples.

Results

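The genes described here are the DNA-binding partners of the Hippo pathway (TEAD1, TEAD2, TEAD3 and TEAD4), their coactivators YAP1 and WWTR1 (the gene for TAZ), and the Vestigial-like cofactors VGLL1, VGLL2, VGLL3 and VGLL4. The 10 genes were looked up by Ensembl identifier among the 60279 genes listed for each of 24 libraries, and 8 of them passed the filter on low counts (a mean of at least 5 counts per library). Poly(A) RNA was sequenced from SW872, an established human liposarcoma cell line, after stable retroviral transduction, in 8 groups of 3 libraries. The control groups carried empty vector, collected after 48 h at confluence (EV) or sub-confluent (EVsub). Full-length CAMTA1 was collected sub-confluent. The other 5 groups were collected like EV and carried full-length TFE3, TAZ4SA or YAP5SA (TAZ with 4 and YAP with 5 serines replaced by alanine), or the fusions TAZ-CAMTA1 (N terminus of TAZ, C terminus of CAMTA1) and YAP-TFE3 (N terminus of YAP, C terminus of TFE3). Every construct was driven by the retroviral vector under drug selection in pooled cells, and the methods describe the lines as made in triplicate.

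The Hippo pathway is a kinase cascade that holds YAP and TAZ in the cytoplasm of crowded cells. When the kinases MST and LATS are inactive, YAP and TAZ enter the nucleus and, having no DNA-binding domain of their own, act on genes through TEAD transcription factors. Vestigial-like proteins bind TEAD as well, and VGLL4 is known as a competitor of YAP. In epithelioid haemangioendothelioma the fusions TAZ-CAMTA1 and YAP-TFE3 keep the TEAD-binding part of their coactivator. The comparisons below ask how the RNA of TEAD and of its cofactors differed between these constructs.

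Total counts per library ran from 19700277 to 35287476. All 9 mesenchymal markers had a median of at least 1 CPM (counts per 1000000 counts of the scaled library), against 3 of 8 adipocyte markers, 2 of 5 epithelial markers, 5 of 5 endothelial markers and 0 of 4 blood markers. The adipocyte hormone gene ADIPOQ had no count in any library. The summed epithelial list ran from 154 to 4022 CPM, nearly all of it KRT8 and KRT18, and was highest in YAP5SA, and the summed endothelial list ran from 84.1 to 378 CPM. Their part in the results below was not tested. In bulk RNA, fewer cells expressing a gene and less RNA per cell cannot be told apart.

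The construct genes were read first. CAMTA1 stood at 21.4 ± 2.04 CPM (SD, n = 3) in EV, at 123 ± 8.08 in the CAMTA1 group and at 144 ± 7.14 in TAZ-CAMTA1. TFE3 stood at 119 ± 10.1 CPM in EV, at 336 ± 19.2 in the TFE3 group and at 283 ± 49.6 in YAP-TFE3. YAP1 was higher in YAP5SA than in EV, but WWTR1 was lower in the libraries labelled TAZ4SA than in EV, against what that label leads one to look for. These libraries are therefore called the libraries labelled TAZ4SA. A gene count can hold both transgene and endogenous reads. The coding sequence is 1200 of 8353 exon bases of WWTR1 (14.4%) and 1512 of 6311 of YAP1. The TEAD target genes did separate the libraries labelled TAZ4SA from EV: CCN1, a secreted matrix protein, was at 896 ± 18.2 CPM against 40.9 ± 4.44. CCN1 was also at 734 ± 8.29 CPM in YAP5SA and 102 ± 11.6 in EVsub. Of 6 TEAD target genes, 0 were called between the libraries labelled TAZ4SA and YAP5SA. Separation from EV therefore does not show which construct these libraries carry.

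Calls among the 8 tested genes came from the quasi-likelihood F test of edgeR over all 24 libraries, with Benjamini-Hochberg adjustment over 19997 genes and an adjusted p under 0.05. Against EV, 3 of the 8 were called in TAZ-CAMTA1 (all higher), where 4.98% of all tested genes were called, 3.55% higher and 1.44% lower. The libraries labelled TAZ4SA had 5 calls (2 higher, 3 lower) beside 49.2% of all genes (25.1% higher, 24.2% lower). YAP-TFE3 had 6 (4 higher, 2 lower) beside 48.2% (25.6% higher, 22.6% lower), and YAP5SA had 7 (4 higher, 3 lower) beside 44.3% (22.7% higher, 21.6% lower). With such backgrounds a call in the last 3 comparisons sets a gene apart from little, so sizes and library values carry the description below.

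In the TFE3 group 0 of 8 were called against EV (0.035% of all genes, all of those higher). CAMTA1 against EVsub also gave 0 of 8 (1.83% of all genes, 1.26% higher and 0.57% lower). In both, edgeR gave 0 of 8 at an unadjusted p under 0.05 and DESeq2 called 0. Sub-confluent against confluent empty vector gave 5 of 8 (2 higher, 3 lower) beside 36.8% of all genes (19.8% higher, 17.1% lower). Between constructs, TAZ-CAMTA1 against the libraries labelled TAZ4SA gave 5 of 8 (3 higher, 2 lower) beside 53.7% (26.9% higher, 26.8% lower). YAP-TFE3 against YAP5SA gave 6 (4 higher, 2 lower) beside 52.4% (28.1% higher, 24.3% lower), and the libraries labelled TAZ4SA against YAP5SA gave 3 (2 higher, 1 lower) beside 7.17% (3.53% higher, 3.64% lower). 6 of these 10 comparisons share the EV libraries.

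**Figure D1:**
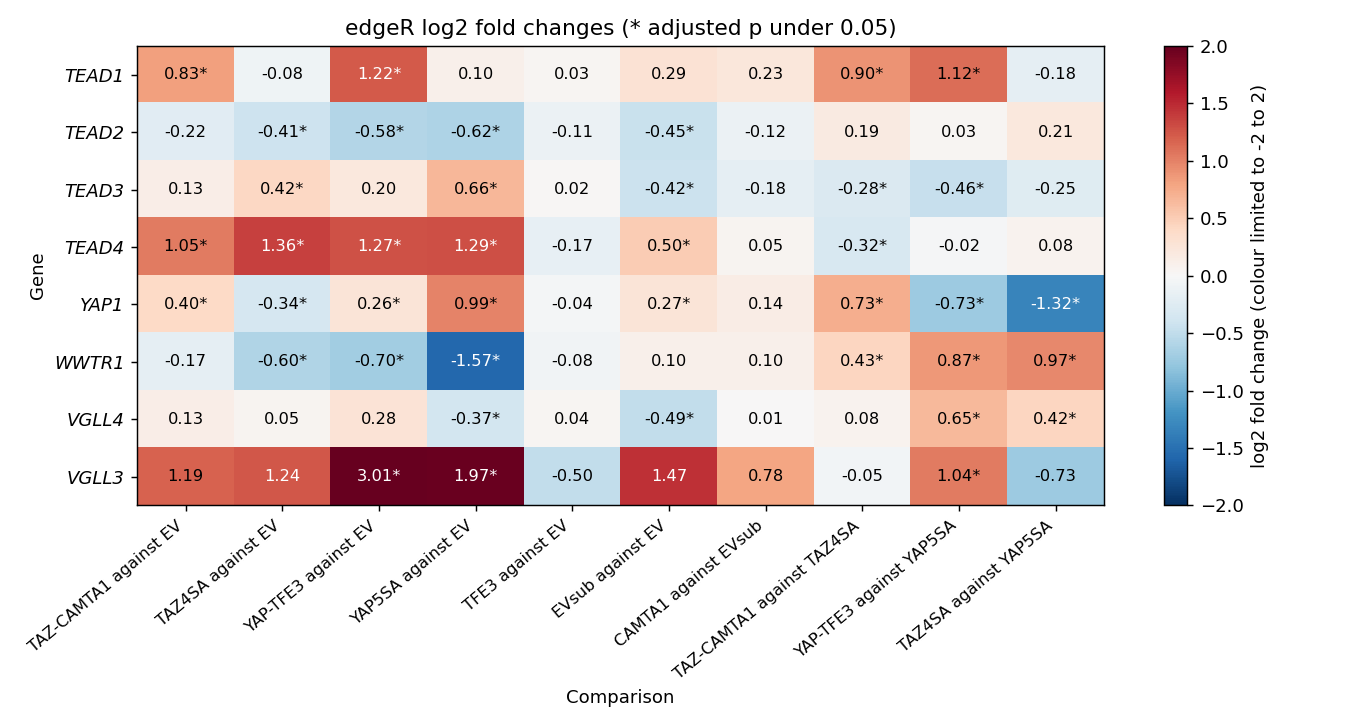
log2 fold changes of the 8 tested genes (vertical axis) in the 10 comparisons (horizontal axis) from edgeR, with an asterisk at an adjusted p under 0.05 and colours limited to -2 to 2. TEAD4 is positive in all 4 YAP and TAZ constructs, TEAD1 is called against EV in the 2 fusions, and WWTR1 is most negative in YAP5SA (-1.57).

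TEAD1 (ENSG00000187079; GRCh38 chromosome 11, 12674421 to 12944737, plus strand) encodes a TEAD factor found in most tissues, and it was higher in both fusions and not called in either hyperactive full-length form. Its 3 EV libraries held 248, 214 and 201 CPM, the TAZ-CAMTA1 libraries 362, 397 and 416, and the YAP-TFE3 libraries 582, 544 and 419.7. Neither fusion overlapped EV. The libraries labelled TAZ4SA held 189, 196 and 243 CPM and the YAP5SA libraries 219, 209 and 284, both across the EV range.

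TEAD1 rose by 0.83 (SE 0.13, adjusted p = 0.000216) on the log2 scale in TAZ-CAMTA1 and by 1.22 (SE 0.13, adjusted p = 4.69e-08) in YAP-TFE3, that is 1.77-fold and 2.33-fold in the edgeR fit. The direct contrasts tested the difference itself. TAZ-CAMTA1 exceeded the libraries labelled TAZ4SA by 0.90 (SE 0.13, adjusted p = 3.53e-06), and YAP-TFE3 exceeded YAP5SA by 1.12 (SE 0.13, adjusted p = 1.45e-07), with every library of the fusion above every library of the other group. The differences for the libraries labelled TAZ4SA and YAP5SA against EV were -0.08 (SE 0.13) and 0.10 (SE 0.13). The CAMTA1 libraries held 324, 324 and 301 CPM, all above EVsub (282, 250.4 and 277), a difference of 0.23 that was not called (adjusted p = 0.52). All 3 EVsub libraries lay above every EV library. That difference of 0.29 (SE 0.13) was not called in the main edgeR fit (adjusted p = 0.0864) but was in some alternatives given below.

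TEAD4 (ENSG00000197905; chromosome 12, 2959330 to 3040676, plus strand), known for its role in the trophectoderm of the early embryo, was the TEAD gene called in all 4 YAP and TAZ constructs. EV held 21.3, 22.0 and 23.2 CPM. The TAZ-CAMTA1 libraries held 44.9, 48.9 and 43.3 CPM, and the YAP-TFE3 libraries 56.2, 61.1 and 43.1. The libraries labelled TAZ4SA held 60.2, 55.6 and 55.1 CPM, and YAP5SA 53.4, 54.8 and 54.0. No library of these 4 groups overlapped EV.

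TEAD4 log2 fold changes against EV were 1.05 in TAZ-CAMTA1 (SE 0.11, adjusted p = 3.08e-07), 1.36 in the libraries labelled TAZ4SA (adjusted p = 2.05e-10), 1.27 in YAP-TFE3 (adjusted p = 6.14e-10) and 1.29 in YAP5SA (adjusted p = 5.60e-10). Between YAP-TFE3 and YAP5SA the difference was -0.02 (SE 0.10, adjusted p = 0.91). TAZ-CAMTA1 was lower than the libraries labelled TAZ4SA by -0.32 (adjusted p = 0.0111), a call lost without replicate 1 of the libraries labelled TAZ4SA (adjusted p = 0.0502) and with total-count scaling (-0.12, adjusted p = 0.32). EVsub, at 30.5, 29.7 and 33.8 CPM, was also above EV without overlap (0.50, SE 0.11, adjusted p = 0.000737).

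TEAD2 (ENSG00000074219; chromosome 19, 49340595 to 49362457, minus strand), expressed early in embryos, moved the other way. EV held 65.8, 77.0 and 78.9 CPM, the libraries labelled TAZ4SA 63.0, 56.5 and 47.1, YAP-TFE3 47.8, 53.0 and 47.1, and YAP5SA 48.2, 55.5 and 40.8. All 3 groups lay below EV without overlap. TEAD2 fell by 0.41 (SE 0.12, adjusted p = 0.00688), by 0.58 (adjusted p = 0.000307) and by 0.62 (adjusted p = 0.000215) on the log2 scale in them, the first not called without replicate 3 of the libraries labelled TAZ4SA (adjusted p = 0.0544). In EVsub, at 50.8, 56.3 and 55.6 CPM, it fell by 0.45 (adjusted p = 0.00577), while in TAZ-CAMTA1 it differed by -0.22 (SE 0.12, adjusted p = 0.34). TEAD2 shares 319 exon bases with CD37 on the opposite strand.

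TEAD3 (ENSG00000007866; chromosome 6, 35473597 to 35497079, minus strand), a TEAD factor known from the placenta, was higher in both hyperactive forms. EV held 27.1, 27.6 and 35.1 CPM, the libraries labelled TAZ4SA 41.2, 36.8 and 41.4, and YAP5SA 46.5, 48.2 and 47.3. Every library of both groups was above every EV library. The rise was 0.42 (SE 0.11, adjusted p = 0.00233) and 0.66 (SE 0.11, adjusted p = 1.77e-05). The first became 0.22 with total-count scaling and lost its call (adjusted p = 0.091). The fusions gave 0.13 and 0.20, neither called, although YAP-TFE3 was called without replicate 3 of EV (0.33, adjusted p = 0.015) or replicate 1 of YAP-TFE3 (0.29, adjusted p = 0.0373). YAP-TFE3 lay below YAP5SA by -0.46 (adjusted p = 0.000731). EVsub fell by 0.42 (adjusted p = 0.00361), opposite in sign to TEAD4 in the same comparison.

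**Figure D2:**
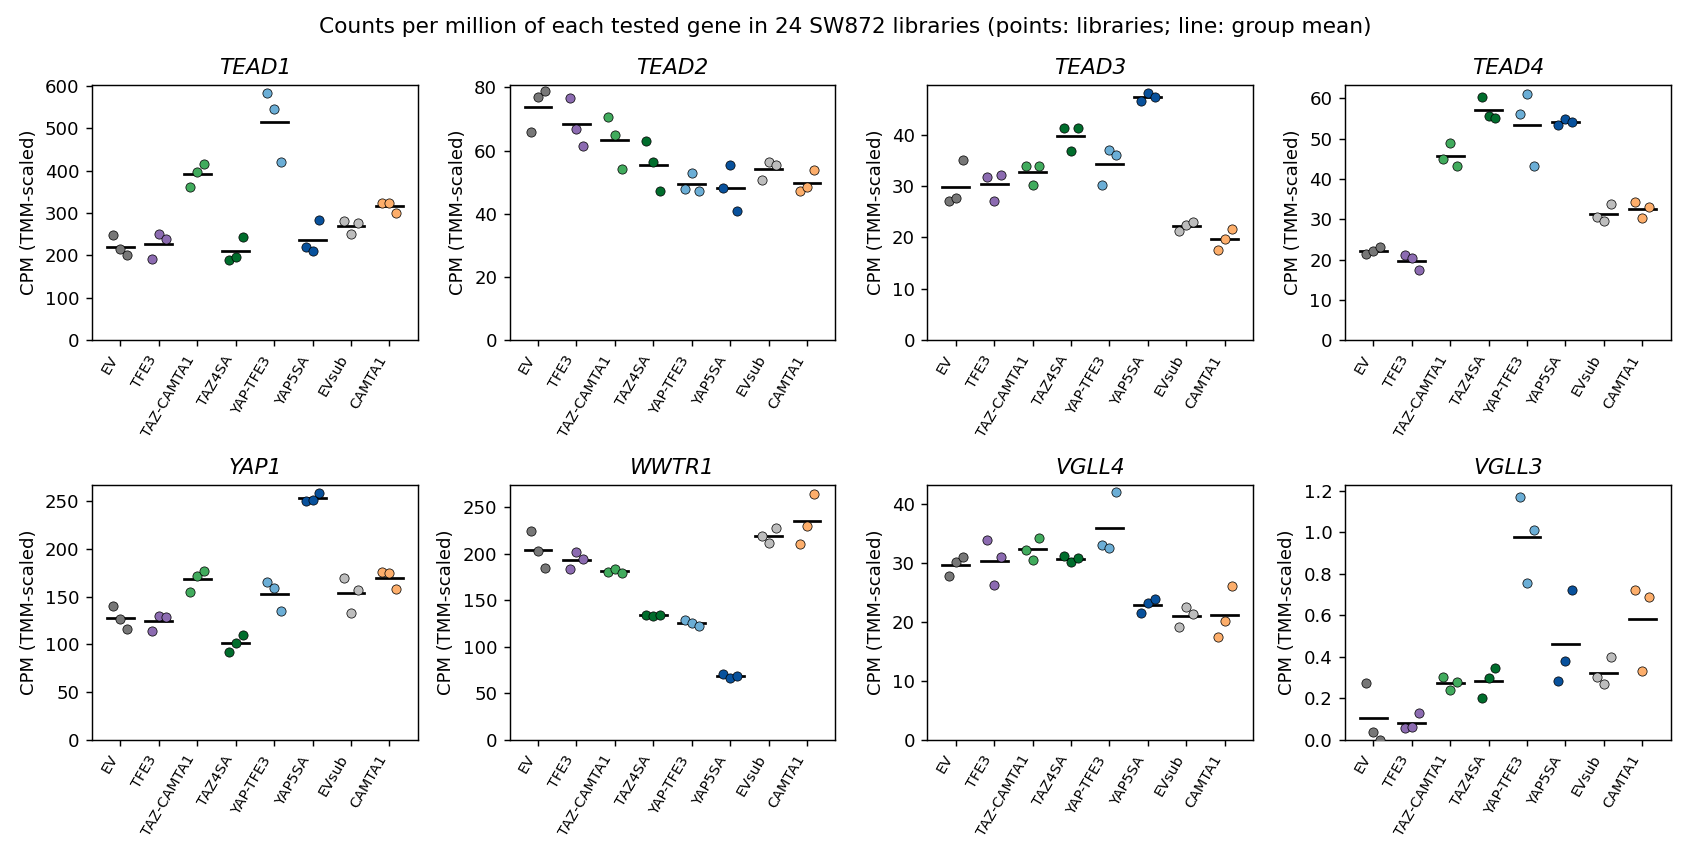
CPM (vertical axes, from 0, counts per 1000000, TMM-scaled) of the 8 tested genes in 24 SW872 libraries by group (horizontal axes), with points for libraries and lines for group means. TEAD1 stands out in the 2 fusions, TEAD4 in all 4 YAP and TAZ constructs, and WWTR1 is lowest in YAP5SA (68.7 CPM).

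The 4 TEAD genes differ in transcript length, so their levels were compared per kilobase of exon. Per length, TEAD2 had 38.1 ± 2.90% of the summed TEAD signal in EV, TEAD1 31.8 ± 4.30%, TEAD3 15.1 ± 1.85% and TEAD4 14.98 ± 0.24%. In YAP-TFE3, TEAD1 had 48.3 ± 3.16% and TEAD2 16.7 ± 1.59%. TEAD4 had 30.6 ± 0.66% in YAP5SA, where it was first in 2 of 3 libraries, and 32.8 ± 0.95% in the libraries labelled TAZ4SA, where it was first in all 3. This order rests on the length scaling. On raw counts TEAD1 was first in all 24 libraries, with mean shares of 63.6% in EV and 61.1% in YAP5SA, TEAD2 had 21.4% in EV, and TEAD4 had 14.0% in YAP5SA and 15.8% in the libraries labelled TAZ4SA. The shares are descriptions over 3 libraries and were given no test.

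The summed TEAD level was 65.0 ± 1.74 CPM per kilobase in EV, 64.5 ± 2.21 in EVsub, 62.7 ± 1.44 in TFE3 and 67.1 ± 0.74 in CAMTA1. It was 88.7 ± 1.54 in TAZ-CAMTA1, 76.3 ± 2.52 in the libraries labelled TAZ4SA, 77.6 ± 2.06 in YAP5SA and 99.5 ± 11.9 in YAP-TFE3. Per length, the 4 YAP and TAZ constructs had higher means than the 4 other groups, with the widest spread in YAP-TFE3. Without the length scaling the 2 fusions were still highest (533 ± 19.5 and 653 ± 93.0 CPM), but the libraries labelled TAZ4SA (362 ± 22.0) and YAP5SA (387 ± 33.6) lay below CAMTA1 (418 ± 7.52).

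**Figure D3:**
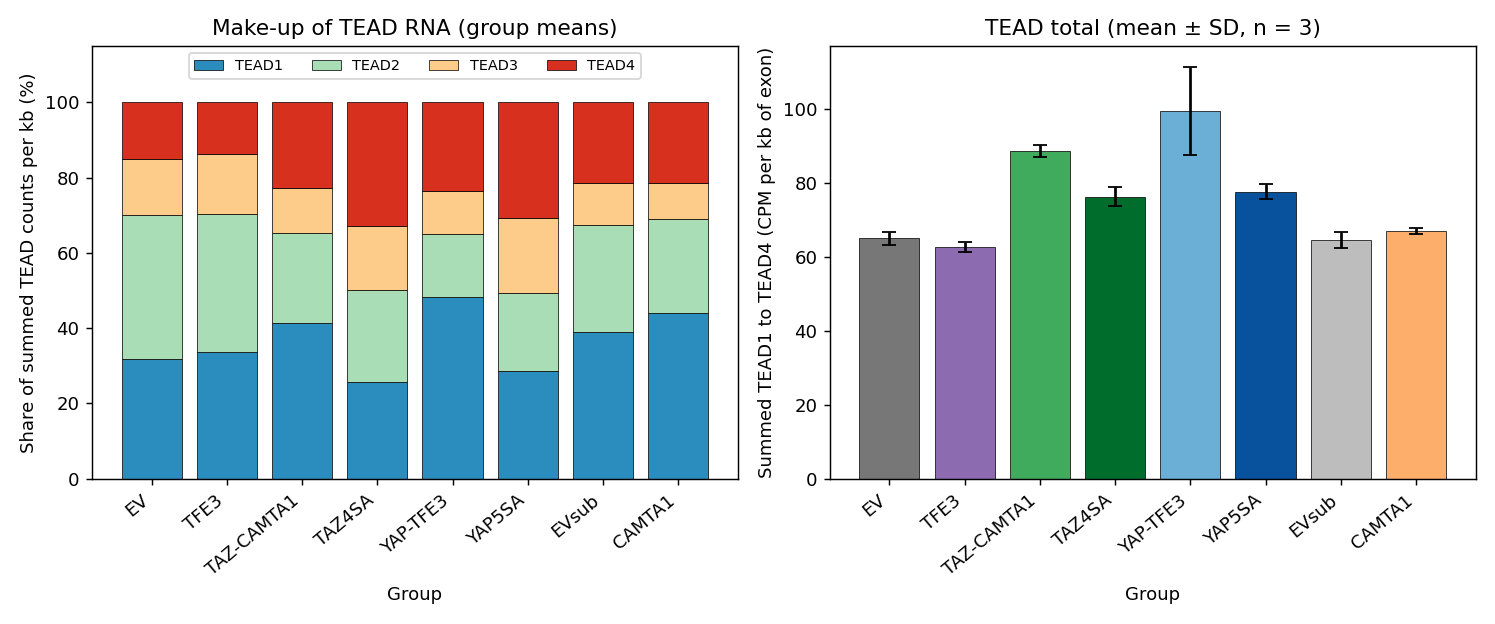
Left, share of the summed TEAD counts per kilobase of exon from each TEAD gene (vertical axis, %, group means) by group. Right, summed TEAD level (CPM per kilobase, bars from 0, mean ± SD, n = 3): EV at 65.0 and YAP-TFE3 at 99.5, with TEAD1 taking 31.8% and 48.3% of them.

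YAP1 (ENSG00000137693; chromosome 11, 102110447 to 102233424, plus strand) and WWTR1 (ENSG00000018408; chromosome 3, 149517235 to 149736714, minus strand) encode the paralogous coactivators. The 250 bases before their start sites are shown because the coactivator comparisons below turn on these genes. In YAP5SA and YAP-TFE3 the YAP1 counts may include construct reads, so they cannot be taken as the level of the endogenous gene. Capitals mark GGAATG or its reverse complement CATTCC (the core of TEAD sites) and CACGTG, an E-box of the kind that TFE3 binds, searched on both strands. Sequences are from RefSeq on GRCh38.p14 and run 5′ to 3′ on the gene's strand, at chr11:102110197-102110446 (plus strand) for YAP1, and at chr3:149658026-149658275 and chr3:149703274-149703523 (minus strand) for 2 start sites of WWTR1.
YAP1: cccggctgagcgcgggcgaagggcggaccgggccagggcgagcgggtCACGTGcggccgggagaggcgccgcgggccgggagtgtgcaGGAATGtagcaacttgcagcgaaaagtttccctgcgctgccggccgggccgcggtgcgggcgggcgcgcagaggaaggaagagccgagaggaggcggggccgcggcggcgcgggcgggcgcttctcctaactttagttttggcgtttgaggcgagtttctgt
WWTR1, first start site listed: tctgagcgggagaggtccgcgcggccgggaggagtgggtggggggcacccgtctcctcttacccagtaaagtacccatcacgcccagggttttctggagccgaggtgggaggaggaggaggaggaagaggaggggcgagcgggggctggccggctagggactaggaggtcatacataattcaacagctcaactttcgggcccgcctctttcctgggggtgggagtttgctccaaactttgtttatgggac
WWTR1, second start site listed: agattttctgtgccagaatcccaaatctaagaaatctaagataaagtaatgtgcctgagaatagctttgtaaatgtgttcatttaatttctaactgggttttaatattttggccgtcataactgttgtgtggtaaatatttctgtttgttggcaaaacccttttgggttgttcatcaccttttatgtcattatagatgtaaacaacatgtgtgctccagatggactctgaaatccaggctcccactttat

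GGAATG and CACGTG were each found once before YAP1, starting at -162 and -203 from the start site, and neither in the 2 WWTR1 windows. Of 35116 windows of this length before RefSeq genes, 11.9% held GGAATG and 6.34% held CACGTG. Windows were listed for 8 of the 10 genes, TEAD1 and TEAD4 not among them, and 2 of their 14 windows held GGAATG, the other before VGLL1 (-157), and 2 held CACGTG, the other before VGLL4 (-102). A match describes letters and is no evidence of binding.

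WWTR1 was lower in 3 of the 4 YAP and TAZ constructs than in EV. EV held 225, 203 and 184 CPM. The libraries labelled TAZ4SA held 135, 134 and 134 CPM, YAP-TFE3 129, 125 and 123, and YAP5SA 70.4, 67.0 and 68.7. All 9 lay below EV, and the 3 YAP5SA libraries lay below all others. WWTR1 fell by 0.60 (SE 0.08, adjusted p = 9.77e-07), by 0.70 (adjusted p = 9.98e-08) and by 1.57 (SE 0.08, adjusted p = 1.70e-13) on the log2 scale, the last to 0.337 times EV.

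TAZ-CAMTA1, whose construct carries part of the WWTR1 coding sequence, held 180.0, 183 and 179 CPM, all below EV, yet the difference of -0.17 (SE 0.08) was not called (adjusted p = 0.24). It exceeded the libraries labelled TAZ4SA by 0.43 (adjusted p = 7.14e-05). YAP-TFE3 exceeded YAP5SA by 0.87 (adjusted p = 2.79e-09), and the libraries labelled TAZ4SA exceeded YAP5SA by 0.97 (adjusted p = 2.08e-08). EVsub differed from EV by 0.10 (adjusted p = 0.33). WWTR1 shares 756 exon bases with WWTR1-AS1 on the opposite strand.

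YAP1 was highest in YAP5SA, whose construct may add YAP1 reads. It stood at 249.5, 251 and 259 CPM there, against 141, 127 and 116 in EV. The rise was 0.99 (SE 0.10, adjusted p = 1.71e-08) without overlap. In the libraries labelled TAZ4SA, which carry no YAP1 construct, YAP1 stood at 91.6, 102 and 110 CPM, below EV without overlap, and fell by 0.34 (SE 0.10, adjusted p = 0.00706). That call was lost without replicate 1 of EV or of the libraries labelled TAZ4SA (adjusted p = 0.0553 and 0.0524).

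The remaining YAP1 calls were small. TAZ-CAMTA1, at 155, 172 and 177 CPM, exceeded EV without overlap by 0.40 (SE 0.10, adjusted p = 0.0175), and the call was lost in 4 of 6 fits that left out 1 library. YAP-TFE3, whose construct holds the first coding exon of YAP1 (321 bases, 5.09% of exon length), held 165, 158 and 135 CPM, which overlapped EV, with a difference of 0.26 (adjusted p = 0.0341) that lost its call in 4 of 6 such fits. EVsub (170.0, 133 and 157 CPM) overlapped EV too, at 0.27 (adjusted p = 0.0376), also lost in 4 of 6. TAZ-CAMTA1 exceeded the libraries labelled TAZ4SA in YAP1 by 0.73 (adjusted p = 1.47e-06), and YAP-TFE3 lay below YAP5SA by -0.73 (adjusted p = 1.25e-06). YAP1 shares 628 exon bases with ENSG00000254422 and 11 with ENSG00000277459, both on the opposite strand.

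The ratio of YAP1 to WWTR1 within a library needs no scaling between libraries. The YAP and TAZ constructs carry YAP1 or WWTR1 coding sequence, and the counts do not separate construct reads from endogenous reads. In those groups the ratio therefore cannot be taken to measure the endogenous genes alone, and full exon length does not apply to construct reads. Per kilobase of exon its log2 value was -0.27, -0.28 and -0.26 in EV, 0.19, 0.31 and 0.39 in TAZ-CAMTA1, 0.76, 0.74 and 0.54 in YAP-TFE3, and 2.23, 2.31 and 2.32 in YAP5SA. The libraries labelled TAZ4SA held -0.15, 0.01 and 0.12. The order of the 2 genes depends on the division by exon length. On raw counts YAP1 stayed below WWTR1 in TAZ-CAMTA1 (-0.21, -0.09 and -0.02) and lay above it in YAP-TFE3 (0.35, 0.34 and 0.13) and YAP5SA (1.83, 1.90 and 1.91), while EV held -0.68, -0.68 and -0.67. Differences between groups are the same on both scales.

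The mean rose from EV by 0.57 in TAZ-CAMTA1, 0.26 in the libraries labelled TAZ4SA, 0.95 in YAP-TFE3 and 2.56 in YAP5SA, and by 0.16 in EVsub. Each gave a two-sided exact permutation p of 0.1 (adjusted p = 0.125 over 10 comparisons), the smallest that 3 against 3 allows. TFE3 differed from EV by 0.03 (exact permutation p = 0.4) and CAMTA1 from EVsub by 0.06 (exact permutation p = 0.8).

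**Figure D4:**
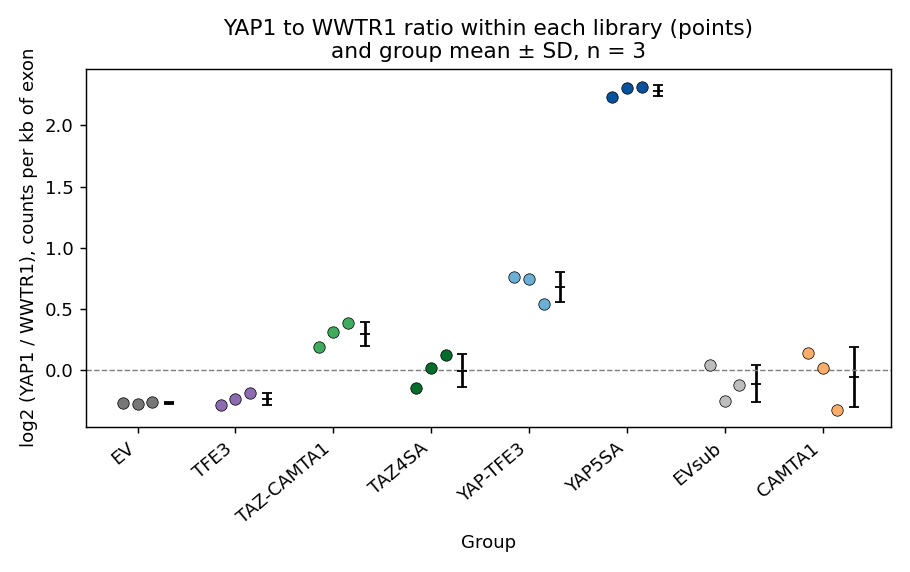
log2 ratio of YAP1 to WWTR1 counts per kilobase of exon (vertical axis) in each library (points) by group, with mean ± SD beside them (n = 3) and a dashed line at equal levels. All 3 YAP5SA libraries lie above 2, and all EV and TFE3 libraries lie below 0. Counts in the YAP and TAZ construct groups include any construct reads.

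Vestigial-like genes were low apart from VGLL4. VGLL1 (ENSG00000102243; chromosome X, 136532215 to 136556807) had 4 counts in all, 3 in one TAZ-CAMTA1 library and 1 in a library labelled TAZ4SA. VGLL2 (ENSG00000170162; chromosome 6, 117265558 to 117273565) had 27 counts in 14 libraries and at most 4 in any. Both fell below the filter on low counts. Without that filter VGLL1 was called in 0 of 10 comparisons (lowest edgeR adjusted p = 0.577) and VGLL2 in 1 of 10, TAZ-CAMTA1 (0, 0 and 0 counts) against the libraries labelled TAZ4SA (1, 3 and 2 counts; adjusted p = 0.0405). The 3 YAP-TFE3 libraries held 3, 4 and 2 VGLL2 counts. With so few counts no fold is given.

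VGLL3 (ENSG00000206538; chromosome 3, 86876388 to 86991149, minus strand), a TEAD cofactor, had 265 counts in all. EV held 8, 1 and 0 counts, YAP-TFE3 36, 24 and 35, and YAP5SA 6, 8 and 18. Each YAP-TFE3 library lay above every EV and YAP5SA library in CPM, and the log2 fold changes against EV were 3.01 (SE 0.50, adjusted p = 2.51e-05) in YAP-TFE3 and 1.97 (SE 0.59, adjusted p = 0.00839) in YAP5SA. The EV level rests on few counts. Without replicate 1 of EV, which holds 8 of its 9 counts, the YAP-TFE3 value became 5.25 and the YAP5SA value 4.21, and TAZ-CAMTA1, the libraries labelled TAZ4SA and EVsub were called as well. Without replicate 3 of YAP5SA that group's call was lost (1.47, adjusted p = 0.0829). YAP-TFE3 against YAP5SA (1.04, adjusted p = 0.0304) was lost with DESeq2 (adjusted p = 0.0761) and in 4 of 6 fits without 1 library.

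VGLL4 (ENSG00000144560; chromosome 3, 11556069 to 11771350, minus strand), the competitor of YAP for TEAD, held 27.8, 30.2 and 31.0 CPM in EV and was lower in YAP5SA, at 21.5, 23.3 and 23.9. The groups did not overlap, and the fall of 0.37 (SE 0.13, adjusted p = 0.0177) was lost without replicate 3 of EV (adjusted p = 0.0552) or replicate 1 of YAP5SA (adjusted p = 0.0713). EVsub, at 19.2, 22.7 and 21.4 CPM, fell by 0.49 (adjusted p = 0.00341). YAP-TFE3 held 33.1, 32.5 and 42.1 CPM and exceeded YAP5SA by 0.65 (adjusted p = 0.000109). All 3 of its libraries lay above EV, and the difference of 0.28 was not called (adjusted p = 0.0664) but gained a call without replicate 1 (0.33, adjusted p = 0.0489) or replicate 2 (0.35, adjusted p = 0.0432) of YAP-TFE3. The call of the libraries labelled TAZ4SA over YAP5SA (0.42, adjusted p = 0.0381) was lost in all 6 fits without 1 library. VGLL4 shares 1597 exon bases with ATG7 on the opposite strand.

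Genes whose 8 group means of log2 CPM followed a member most closely are given as a description, from the same libraries. WWTR1 was nearest to UNC13A (Pearson r 0.985), TBXAS1 (0.976) and DOCK4 (0.973). TEAD4 was nearest to WWC2 (0.979), FBXW11 (0.973) and RCAN1 (0.966), and YAP1 to GNAI1 (0.954), NPR3 (0.940) and WNT5A (0.908). Pearson r compares the shape and not the size of a pattern: group means ranged over 0.164 for FBXW11 and 1.53 for TEAD4. The YAP1 means may include construct reads in YAP5SA and YAP-TFE3. WWC2 is an upstream activator of LATS and belongs to the Hippo kinase list that follows.

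Around the members, the upstream kinase genes were counted in a list of 14. Against EV, 3 were higher and 0 lower in TAZ-CAMTA1, 6 and 5 in the libraries labelled TAZ4SA, 6 and 3 in YAP-TFE3, and 7 and 4 in YAP5SA, with list medians of 0.15, 0.08, 0.20 and 0.02 on the log2 scale beside medians over all tested genes of 0.005, -0.035, -0.011 and -0.036. The shares of all tested genes called higher and lower were 3.55% and 1.44%, 25.1% and 24.2%, 25.6% and 22.6%, and 22.7% and 21.6% in the same order. LATS2, which phosphorylates YAP and TAZ, rose in all 4, by 1.57 in TAZ-CAMTA1, 1.88 in the libraries labelled TAZ4SA, 1.80 in YAP-TFE3 and 1.47 in YAP5SA. WWC1, another activator of LATS, rose by 1.88, 2.61, 1.62 and 3.07 in the same order. NF2, the scaffold merlin, rose by 0.87 in YAP5SA and by 1.58 in the libraries labelled TAZ4SA. In EVsub against EV, 6 of the 14 were higher and 1 lower, beside 19.8% and 17.1% of all genes. The list median there was 0.25, beside -0.02 over all tested genes, and WWC2 was called higher by 0.64.

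Of 11 genes whose proteins hold YAP and TAZ outside the nucleus, 3 were higher in TAZ-CAMTA1, 8 in YAP5SA and 7 in the libraries labelled TAZ4SA, with 0 lower in each, while YAP-TFE3 had 3 higher and 4 lower. The background of genes called higher was 3.55%, 22.7% and 25.1% in the first 3, and 25.6% higher and 22.6% lower in YAP-TFE3. List medians were -0.007 in TAZ-CAMTA1, 0.33 in YAP5SA, 0.27 in the libraries labelled TAZ4SA and -0.08 in YAP-TFE3, beside the same medians of all genes as above. Without any YAP or TAZ construct, EVsub against EV had 6 higher and 0 lower, with a median of 0.25, beside 19.8% of all genes higher. CAMTA1 against EVsub had 2 higher and 0 lower, beside 1.26% of all genes higher. AMOTL2, an angiomotin that binds YAP, was at 20.9 ± 0.40 CPM in EV, 103 ± 13.2 in TAZ-CAMTA1, 129 ± 9.12 in YAP-TFE3, 303 ± 19.1 in YAP5SA and 339 ± 8.88 in the libraries labelled TAZ4SA. Its log2 fold changes were 2.30, 2.63, 3.86 and 4.02, each called. In EVsub AMOTL2 was at 45.6 ± 5.14 CPM, called higher than EV by 1.13. In YAP-TFE3 against YAP5SA, 9 of the 11 were lower and 0 higher beside 24.3% and 28.1% of all genes, with a list median of -0.46 against 0.049.

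Among 6 TEAD target genes, 4 were higher in TAZ-CAMTA1, 5 in YAP-TFE3 and all 6 in both YAP5SA and the libraries labelled TAZ4SA, with 0 lower, beside 3.55%, 25.6%, 22.7% and 25.1% of all genes higher. Their medians were 1.13, 2.15, 3.59 and 3.58 on the log2 scale. Sub-confluent empty vector (EVsub) against EV also had 5 of 6 higher and 0 lower, with a median of 1.31, beside 19.8% of all genes higher. Full-length CAMTA1 against EVsub had 2 of 6 higher and 0 lower, with a median of 0.32, beside 1.26% of all genes higher. These were CCN1 (0.87) and CCN2 (0.86). The list was drawn from genes known to respond to YAP and TAZ. ANKRD1, a nuclear ankyrin protein, was at 1.08 ± 0.44 CPM in EV, 1.17 ± 0.33 in TAZ-CAMTA1, 8.53 ± 2.55 in YAP-TFE3, 189 ± 35.9 in YAP5SA and 253 ± 26.2 in the libraries labelled TAZ4SA. In EVsub it was at 18.8 ± 5.42 CPM. In each fusion against its hyperactive parent 6 of 6 were lower, beside 26.8% of all genes in TAZ-CAMTA1 against the libraries labelled TAZ4SA and 24.3% in YAP-TFE3 against YAP5SA, with list medians of -2.28 and -1.95. TEAD1 was higher in the fusions in both.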

How the data were processed

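RNA of 24 SW872 libraries was sequenced from TruSeq stranded poly(A) libraries. The authors aligned reads to hg38 with Hisat2 in bcbio-nextgen and deposited whole-number counts per Ensembl gene, not normalized and not pooled. The counting tool, strand setting and handling of multiply aligned reads are not given in the sources used here, so overlapping and antisense genes are uncertain. The study's own tests used DESeq2 on salmon estimates. Symbols, coordinates and exon lengths came from GENCODE release 44, which matched 56104 of 60279 identifiers, and promoter sequences from RefSeq.

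Groups and replicate numbers came from the sample titles. Counts were tested with edgeR 4.0.16 (R 4.3.3) as described above, after TMM scaling. CPM, a gene's count per 1000000 counts of the TMM-scaled library, is given as mean ± SD. Alternatives were DESeq2 1.42.0, DESeq2 size factors, total-count scaling, no filter beyond 1 count, a mean of at least 20 counts, fits on the 2 groups compared, the replicate number as a block, and fits without each library. Count precision covers counting error only. The paper describes its triplicates as separate transductions followed by selection, which the labels do not show. On that description p-values measure the spread between separately transduced lines. Scripts were tested on simulated counts. All 10 genes and every list were chosen with earlier results of these data known. From each list and comparison the rule took up to 4 called genes, ranked by the size of their fold change, that averaged 100 counts or more, and some of them are printed. Nearest genes by Pearson r were taken for the 3 members with the widest range of group means that averaged 100 counts or more.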

Additional observations from a re-analysis of the deposited data

How the results depend on the processing

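Of 80 gene and comparison results, 40 were called. None of the called ones changed sign in any alternative, and 11 lost their call in at least 1 fit without 1 library. The call counts of the tested genes moved by over 1.5 times in 1 case: TAZ-CAMTA1 against the libraries labelled TAZ4SA gave 3 to 5 without 1 library, the lowest without replicate 1 of the latter. The log2 ratio of YAP1 to WWTR1 in CAMTA1 against EVsub ran from -0.0438 to 0.192 without 1 library.

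Uncalled differences changed sign in such fits, with these lowest and highest values. Against EV, TEAD1 ran from -0.20 to 0.012 in the libraries labelled TAZ4SA and from -0.045 to 0.19 in YAP5SA. For TFE3 against EV the ranges were -0.045 to 0.14 for TEAD1, -0.044 to 0.15 for TEAD3, -0.95 to 1.74 for VGLL3, -0.049 to 0.13 for VGLL4 and -0.11 to 0.033 for YAP1. VGLL4 ran from -0.16 to 0.13 in CAMTA1 against EVsub. In TAZ-CAMTA1 against the libraries labelled TAZ4SA, VGLL3 ran from -0.25 to 0.12 and VGLL4 from -0.0024 to 0.12. In YAP-TFE3 against YAP5SA, TEAD2 ran from -0.074 to 0.15 and TEAD4 from -0.12 to 0.12.

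Total-count scaling lost 6 calls: TEAD3 in the libraries labelled TAZ4SA against EV, TEAD3 and TEAD4 in TAZ-CAMTA1 against those libraries, YAP1 in YAP-TFE3 and in EVsub, and VGLL4 in the libraries labelled TAZ4SA against YAP5SA. It gained 1, TEAD2 in TAZ-CAMTA1 against the libraries labelled TAZ4SA (from 0.19 to 0.39, adjusted p = 0.00356). It turned the sign of 5 uncalled values: VGLL4 in the libraries labelled TAZ4SA (-0.15) and in CAMTA1 against EVsub (-0.014), TEAD1 in YAP5SA (-0.079), VGLL3 in TAZ-CAMTA1 against the libraries labelled TAZ4SA (0.14) and TEAD4 in YAP-TFE3 against YAP5SA (0.086). Without a filter beyond 1 count the last was 0.0033. This scaling moved the median of all genes to -0.232 in the libraries labelled TAZ4SA, -0.221 in YAP5SA, 0.227 in TAZ-CAMTA1 against the former and 0.147 in YAP-TFE3 against YAP5SA. It moved the higher and lower calls of the libraries labelled TAZ4SA from 5013 and 4835 to 3355 and 7318, of YAP5SA from 4534 and 4325 to 3135 and 6840, of YAP-TFE3 from 5126 and 4519 to 4319 and 5538, of EVsub from 3956 and 3412 to 3109 and 4286, of CAMTA1 from 252 and 114 to 222 and 169, and of TAZ-CAMTA1 against the libraries labelled TAZ4SA from 5376 and 5354 to 7486 and 3695. Causes were not tested.

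Over all alternatives the genes called ran from 544 to 1367 for TAZ-CAMTA1 (996), from 176 to 663 for CAMTA1 (366), from 1 to 40 for TFE3 (7) and from 901 to 1769 for the libraries labelled TAZ4SA against YAP5SA (1434). YAP1 also lost its call in YAP-TFE3 when only the 2 groups were fitted (adjusted p = 0.12) and in EVsub with a mean of at least 20 counts (adjusted p = 0.0529). TEAD1 in EVsub (0.29, adjusted p = 0.0864) gained a call without a filter beyond 1 count (adjusted p = 0.0113), with only the 2 groups (adjusted p = 0.0166) and without replicate 1 of EV (adjusted p = 0.0452). Without that filter VGLL3 in EVsub was called too (adjusted p = 0.0438), and TEAD3 in TAZ-CAMTA1 against the libraries labelled TAZ4SA lost its call (adjusted p = 0.0693). DESeq2 size factors and the replicate block changed none of the 80 results. Whether the replicate numbers pair the libraries is not settled. In no comparison did all 3 same-number correlations pass 0.1 (range -0.236 to 0.366), though 8 of 30 did. Every library was closest to its own number only in YAP-TFE3 against EV. In EVsub against EV and in TAZ-CAMTA1 against the libraries labelled TAZ4SA 5 of 6 were, and elsewhere from 1 to 4 of 6. The block called 3 tested genes in TAZ-CAMTA1 against EV, as without it. VGLL1, VGLL2 and VGLL3 had few counts, and whether more depth would change their results was not tested.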

Other observations

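Nuclear cofactors of TEAD and YAP (11 genes, 9 tested) were also compared between the fusions and the hyperactive forms. In TAZ-CAMTA1 against the libraries labelled TAZ4SA 5 were higher and 1 lower, and in YAP-TFE3 against YAP5SA 6 were higher and 1 lower, with list medians of 0.27 and 0.31 on the log2 scale beside 0.029 and 0.049 over all tested genes. Of all tested genes 26.9% were higher and 26.8% lower in the first comparison, and 28.1% and 24.3% in the second. The steroid receptor coactivator NCOA3 was at 119 ± 2.79 CPM in EV, 168 ± 3.71 in TAZ-CAMTA1 and 229 ± 51.0 in YAP-TFE3, against 101 ± 6.45 in YAP5SA and 84.7 ± 5.14 in the libraries labelled TAZ4SA. NCOA2 fell by 0.91 in YAP5SA and by 1.04 in the libraries labelled TAZ4SA on the log2 scale against EV (edgeR adjusted p = 4.02e-08 and 4.59e-09).

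Of other transcription factors that bind YAP or TAZ (10 genes, 8 tested), 3 were higher and 1 lower against EV in each of YAP-TFE3, YAP5SA and the libraries labelled TAZ4SA, where 25.6%, 22.7% and 25.1% of all tested genes were higher and 22.6%, 21.6% and 24.2% lower. TAZ-CAMTA1 had 0 higher and 1 lower (RUNX1), beside 3.55% and 1.44% of all tested genes. List medians were 0.34, 0.12, 0.14 and 0.10 on the log2 scale, beside -0.011, -0.036, -0.035 and 0.005 over all tested genes. RUNX1, a factor of blood and bone development, was at 52.3 ± 5.47 CPM in EV, 25.4 ± 1.47 in YAP-TFE3, 52.1 ± 0.61 in YAP5SA and 68.4 ± 4.20 in the libraries labelled TAZ4SA. In TAZ-CAMTA1 it was at 40.7 ± 5.12 CPM and was called lower than EV (edgeR adjusted p = 0.0269). PPARG, the main adipocyte regulator, was at 46.8 ± 4.07 CPM in EV, 87.2 ± 21.7 in YAP-TFE3, 32.5 ± 3.63 in YAP5SA and 28.9 ± 1.96 in the libraries labelled TAZ4SA. Against EV, edgeR called both genes in YAP-TFE3 and the libraries labelled TAZ4SA (adjusted p = 4.04e-09 and 0.00153 for RUNX1, 8.02e-06 and 0.000248 for PPARG), and PPARG also in YAP5SA (adjusted p = 0.00364).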
